A study of Mus musculus with 26 samples.

Results

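Chromatin regulator families are the genes whose products write, erase and read marks on histones and DNA or move nucleosomes. Here they were taken from the deposited count tables by symbol: 7 histone deacetylases (Hdac1, Hdac2, Hdac3, Hdac6, Hdac8, Hdac10 and Hdac11) and all rows named Kdm, Kmt, Setd, Smarc, Dnmt, Tet, Sirt, Brd or Chd with a number or subunit letter. Of 89 such rows, 86 had 10 or more counts in at least 3 of the 26 libraries and form the set described, out of 31735 gene rows in all. The 3 rows not kept were Dnmt3l, the pseudogene Smarca5-ps and the read-through gene Setdb2-phf11c. The set holds 18 Kdm, 13 Smarc, 11 Chd, 11 Setd, 7 Brd, 7 Hdac, 7 Sirt, 5 Kmt2, 4 Dnmt and 3 Tet rows. Among them Chd3os, a gene that GENCODE names Rnf227, and Dnmt3aos, an antisense RNA, match only by symbol and are not chromatin regulators. The row Setd8 is the gene that GENCODE names Kmt5a.

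The libraries came from the accumbens nucleus, a reward region of the ventral striatum, of adult mice of the line Drd2-TRAP CP101. In this line the promoter of the dopamine receptor gene Drd2 drives an EGFP tag on the ribosomal protein Rpl10a, so that polysomes of cells with that promoter can be pulled down with antibodies against EGFP. In the accumbens these cells are mainly D2 medium spiny neurons, and cholinergic interneurons use the promoter too. All mice carried the transgene on an FVB/N and Swiss Webster background crossed to C57BL/6 for at least 9 generations, and all self-administered cocaine or saline intravenously with long access. The 24 immunopurified libraries form 5 groups by their titles: 3 after saline, 5 after cocaine whose intake did not escalate (nonescalating), 2 after cocaine whose intake did (escalating), 6 after saline and then withdrawal, and 8 after nonescalating cocaine and then withdrawal. Total RNA was sequenced as input in 1 saline and 1 nonescalating library without withdrawal. For the 5 nonescalating libraries the description field mentions withdrawal and the title does not, so groups were set by title. The withdrawal groups were made in 2 runs of library numbers, called library set 1 (up to 1825) and library set 2 (from 1836), and the other groups only in set 1. No label ties a library to an animal, so n is a number of libraries, and p-values take in only how these libraries vary, part of which may be technical.

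Gene counts per immunopurified library ran from 1529072 to 17368828, and the saline and nonescalating inputs had 4659589 and 37222708. At these depths 3 counts, the upper limit that a count of 0 allows, correspond to 0.173 to 1.96 CPM in a pull-down, where CPM is the count scaled to a common library total, for this limit without TMM factors. The regulators took up 1.17% to 1.4998% of the gene counts of an immunopurified library and 1.24% and 1.10% of the inputs, and 68 to 83 of the 86 had 10 or more counts in a given pull-down. The 6 markers of D2 medium spiny neurons summed to 661 CPM in nonescalating replicate 4 (library 1813), below the 1155 and 1591 CPM of the inputs, and to between 3498 and 9259 CPM in the other pull-downs. Endothelial markers summed to 198 to 3190 CPM in pull-downs and to 72.5 and 195 CPM in inputs. The part of vascular RNA in the levels given here was not tested.

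Histone methyltransferases (Kmt2, Setd) and lysine demethylases (Kdm) set and remove methyl marks at promoters, gene bodies and silenced regions. Deacetylases (Hdac and the NAD-dependent Sirt enzymes) take acetyl groups off histones and other proteins, and bromodomain proteins (Brd) bind acetylated histones. Dnmt enzymes methylate cytosine in DNA and Tet enzymes oxidise that mark, while Smarc and Chd proteins are subunits of machines that slide or evict nucleosomes with energy from ATP. In striatal neurons several of these genes, among them Dnmt3a, Tet1, Hdac3, Sirt1 and the ACF remodeller Smarca5, are known from work on how repeated cocaine alters transcription.

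Within the set the per-length levels spanned from Smarcc2, at a median of 68.3 CPM per kb of exon over the 24 pull-downs, to genes near 0 such as Setdb2 at 0.120. Their promoters are shown because they stand at the ends of that order among the chromatin genes proper. Each run holds the 250 bases before the annotated start, in the direction of the gene, from RefSeq on GRCm38.p6 (mm10), with CG dinucleotides in capitals. The promoter of Smarcc2 lies at chr10:128458986-128459235 on the plus strand and holds 40 CG, and that of Setdb2 lies at chr14:59440881-59441130 on the minus strand and holds 24.
Smarcc2: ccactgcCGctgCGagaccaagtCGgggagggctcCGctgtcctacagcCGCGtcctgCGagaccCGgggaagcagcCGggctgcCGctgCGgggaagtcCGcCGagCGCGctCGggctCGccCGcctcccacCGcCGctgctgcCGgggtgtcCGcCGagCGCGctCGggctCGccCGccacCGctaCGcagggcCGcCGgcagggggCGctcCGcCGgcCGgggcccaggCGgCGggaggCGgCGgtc
Setdb2: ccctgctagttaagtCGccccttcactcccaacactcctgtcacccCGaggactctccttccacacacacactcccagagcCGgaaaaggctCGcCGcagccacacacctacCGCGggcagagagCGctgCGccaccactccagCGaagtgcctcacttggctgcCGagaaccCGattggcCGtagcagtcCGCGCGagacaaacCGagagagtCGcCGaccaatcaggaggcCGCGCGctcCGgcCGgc
Both are rich in CG although their RNA levels lie at opposite ends of the set. Where RefSeq lists several starts of a gene, the one with the most CG was taken, for members and all other genes alike. The CG counts are therefore the highest per gene. A promoter was found by symbol for 67 of the 86 members, and 60 of these (89.55%) held 10 or more CG, with a median of 21. The same count was reached by 74.61% of the promoters of 11099 tested genes and 40.23% of all 27025 promoters of the same length. The letters TATAAA, searched on both strands, occurred in 3 of the 67 (4.478%) and in 5.928% and 12.54% of those larger sets. The members with fewer than 10 CG in the window were Smarcal1, Kdm8, Hdac8, Smarca1, Smarcd2, Dnmt3aos and Setd5. The windows of Smarcd2, Setd5 and Smarca1 lie inside the span of the gene in GENCODE, and that of Hdac8 lies partly inside. For these genes, starts further out were not read. A match describes the letters of this window only.

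Nucleosome remodellers held the top of the order. Among the Smarc subunits of the BAF complex, the scaffold gene Smarcc2 (chromosome 10, 128459248 to 128490482, plus strand, mm10) had the highest median, followed by the accessory subunit gene Smarcd1 at 62.2 CPM per kb, the ATPase gene Smarca2 at 60.0 and the alternative ATPase gene Smarca4 at 38.7. Smarcc2 exceeded its paralogue Smarcc1 (18.9 CPM per kb) in 24 of 24 pull-downs, with a median ratio of 3.78. Smarca2 exceeded Smarca4 in 21 of 24, with a median ratio of 1.56 and a log2 ratio of 0.48 and 0.39 in the inputs. The order of Smarcd1 and Smarca2 was not stable, since Smarcd1 was the higher in 11 of 24. Smarcd1 was above Smarcd3, the variant known from heart and postmitotic neurons, and above Smarcd2 in 24 of 24, with median ratios of 16.7 and 26.1. The core subunit genes Smarcb1 and Smarce1 stood at 5.64 and 5.62 CPM per kb. The ISWI ATPase genes Smarca5 (6.07 CPM per kb) and Smarca1 (5.93 CPM per kb) were not ordered beyond their spread, with Smarca5 higher in 14 of 24. The pseudogene Smarca5-ps could share reads with Smarca5.

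Among the Chd remodellers, Chd3 and Chd4, ATPase genes of the NuRD repressor complex, led with 58.6 and 47.1 CPM per kb, and Chd3 was the higher in 21 of 24 pull-downs. Chd5, the NuRD ATPase gene typical of neurons, had 14.5 CPM per kb. Chd4 exceeded Chd5 in 24 of 24 pull-downs, with log2 ratios from 0.51 to 2.49 and a median of 1.59. In the saline and nonescalating inputs that log2 ratio was 0.34 and -0.32, below every pull-down. Chd8 and Chd7, both linked to neurodevelopmental disorders in humans, had 7.26 and 4.76 CPM per kb, and Chd1l had 1.58.

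Most members of the Kmt2 family methylate histone H3 at active promoters and enhancers. Kmt2a had 59.6 and Kmt2e 55.8 CPM per kb, an order held in 14 of 24 pull-downs only. Kmt2d (36.1) stood above Kmt2c (24.6 CPM per kb) in 22 of 24, and these encode the paired enhancer methyltransferases. Kmt2b, the paralogue of Kmt2a, had 9.73 CPM per kb and was the lower in 24 of 24, with a median ratio of Kmt2a to Kmt2b of 5.97. In the Setd family 4 genes lay together at the top with neighbours not ordered beyond their spread: Setd7 (27.3), Setd2 (26.5), which marks transcribed gene bodies, Setd8 (24.6) and Setd5 (23.9 CPM per kb). Setdb1, which writes the mark of silent heterochromatin, had 4.38 CPM per kb, and its paralogue Setdb2 had the lowest median of the family.

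The highest lysine demethylase RNAs were below those of the Smarc, Chd, Kmt2 and Setd families, and several lay close to each other. Kdm2a led with 17.8 CPM per kb and was above the next gene, Kdm3b (13.8), in 20 of 24 pull-downs. Kdm3b, Kdm3a, Kdm4c, Kdm5a and Kdm1a lay between 11.3 and 13.8 CPM per kb, each above the next in 12 to 15 of 24. Kdm6a and Kdm6b, which both remove the Polycomb methyl mark, had 7.89 and 6.81 CPM per kb and were ordered in 16 of 24. The X-linked Kdm5c exceeded its Y-linked homologue Kdm5d in 23 of 24, with a median ratio of 3.04 and with log2 ratios of 0.04 and 0.61 in the inputs. These ratios rest on merged exons of 7110 and 15164 bases. Without length scaling, median CPM in pull-downs was 69.2 for Kdm5c and 41.9 for Kdm5d. In the saline and nonescalating inputs Kdm5c had 37.3 and 59.6 CPM and Kdm5d had 77.5 and 82.6 CPM. Kdm8 (0.496) and Kdm4d (0.145 CPM per kb) were close to the detection limit.

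Hdac11, the only class IV deacetylase gene, led the deacetylases at 29.3 CPM per kb and was above Hdac2 in 21 of 24 pull-downs. Hdac2 (17.7 CPM per kb) exceeded Hdac1 (5.07), its partner in corepressor complexes, in 24 of 24, with a median ratio of 3.34. Hdac3 had 4.09, Hdac6, a mainly cytoplasmic tubulin deacetylase gene, 2.53, and Hdac10 and Hdac8 1.37 and 1.31 CPM per kb. Among sirtuins Sirt2 led with 16.3 CPM per kb and exceeded Sirt1 (2.95 CPM per kb) in 23 of 24. Sirt2 is also expressed by oligodendrocytes, whose 7 markers summed to 219 to 3425 CPM in pull-downs and to 1651 and 4377 CPM in the inputs, and their part in its level was not tested. The mitochondrial sirtuin genes Sirt3, Sirt4 and Sirt5 were low, at 1.86, 0.531 and 0.449 CPM per kb.

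Dnmt3a, the de novo DNA methyltransferase gene, had 11.8 CPM per kb and Dnmt1, the maintenance enzyme gene, 9.49, with Dnmt3a the higher in 14 of 24 pull-downs only. Dnmt3b had 0.307 CPM per kb and was below Dnmt3a in 24 of 24, with a median ratio of Dnmt3a to Dnmt3b of 26.7. The 3 Tet genes were ordered Tet3 (17.9), Tet2 (11.7) and Tet1 (6.33 CPM per kb), with Tet3 above Tet2 in 21 and Tet2 above Tet1 in 23 of 24. Among bromodomain readers, Brd2 had 25.996 CPM per kb and exceeded its paralogue Brd3 (11.2 CPM per kb) in 23 of 24. These orders rest on exon lengths from GENCODE M21 that merge all annotated exons. A gene that uses few of its listed exons in this tissue is therefore set too low.

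**Figure D1:**
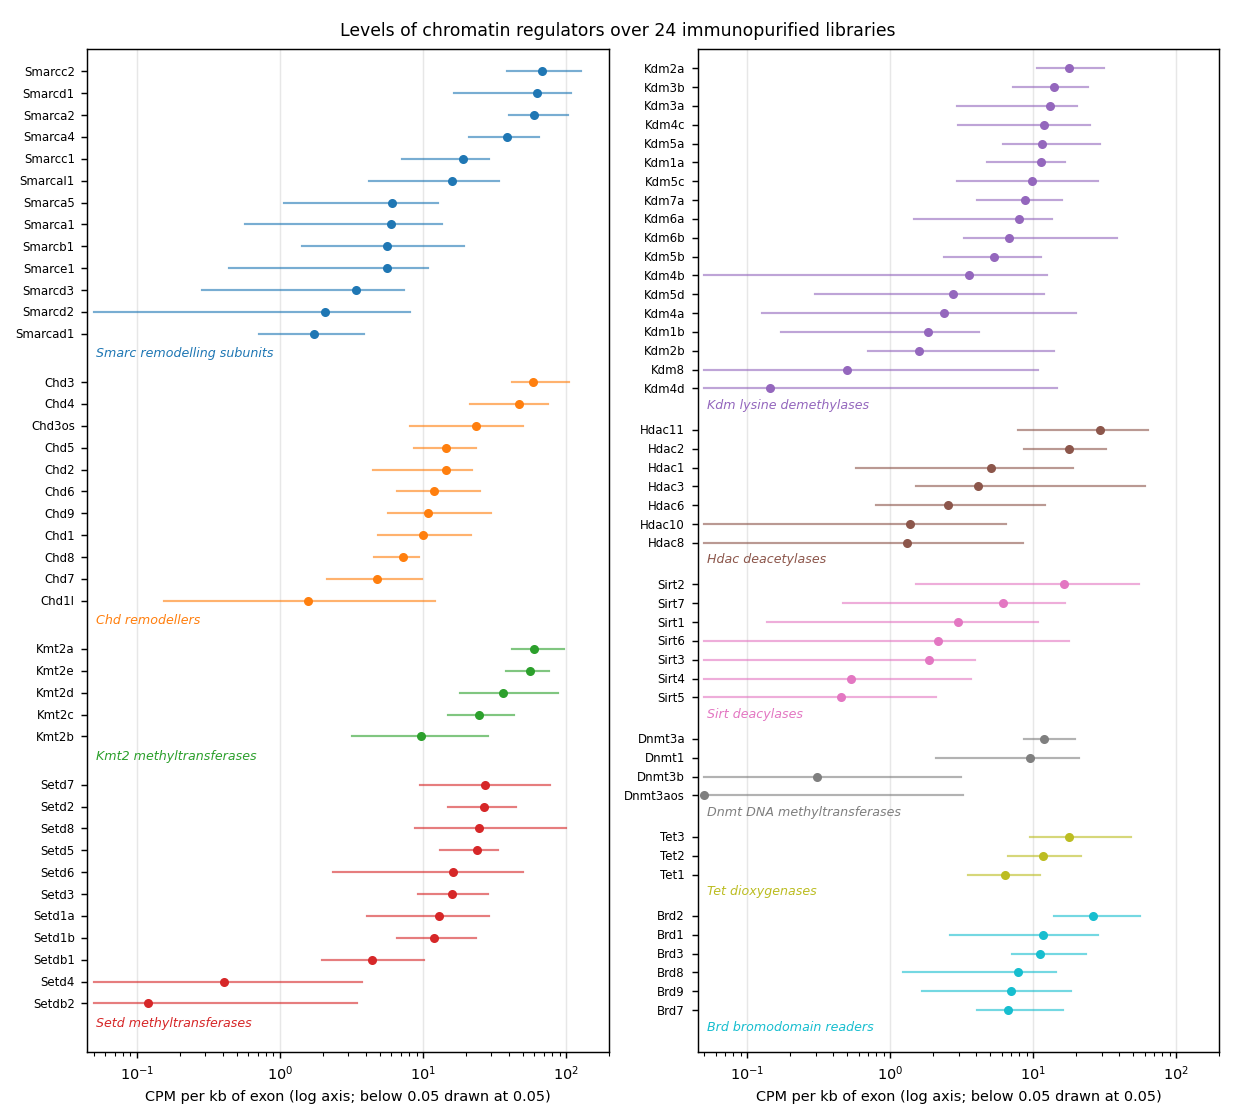
Levels of 85 of the regulators over the 24 immunopurified libraries, in CPM per kb of exon on a log axis: points are medians and lines run from the lowest to the highest library, grouped by family. Smarcc2, Smarcd1, Smarca2, Kmt2a, Chd3 and Kmt2e stand above 50 CPM per kb, and values under 0.05, such as the 0 of Kdm4d, Setdb2 and Dnmt3aos in some libraries, are drawn at 0.05.

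**Figure D2:**
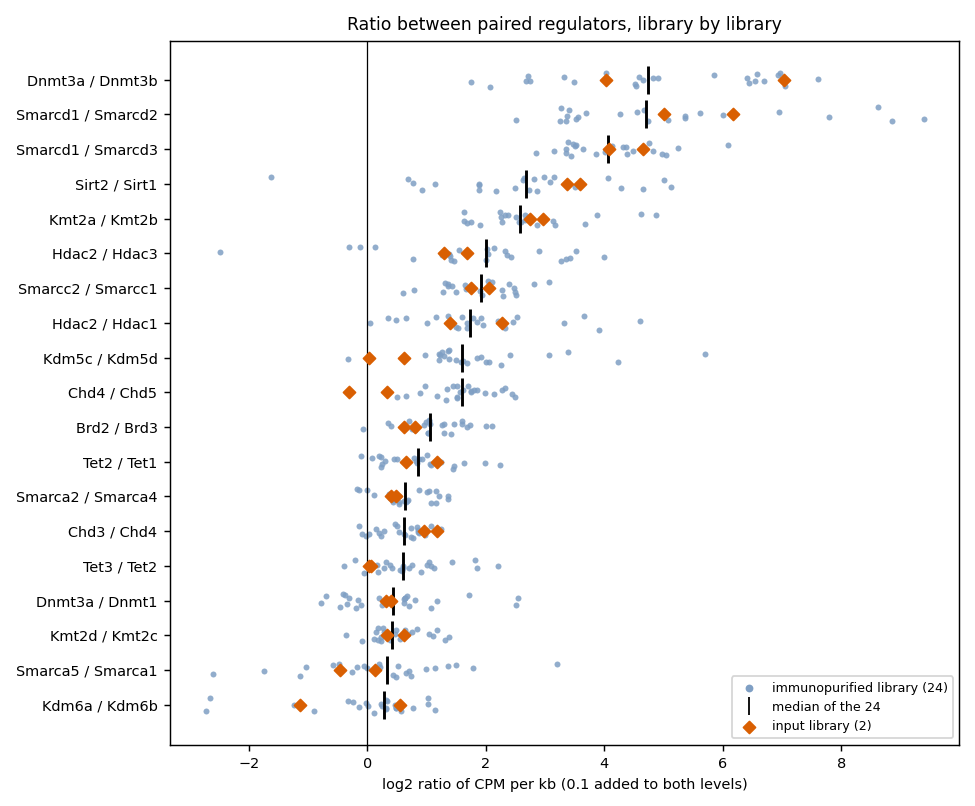
Log2 ratio of CPM per kb between pairs of related regulators in each library (0.1 added to both levels). Blue points are the 24 pull-downs, black bars their medians and orange diamonds the 2 inputs, and the Chd4 to Chd5 ratio is the one whose inputs (0.34 and -0.32) lie below all 24 pull-downs.

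Across the 24 pull-downs, 64 members had 10 or more counts in every library, and their coefficients of variation (SD over mean CPM) ran from 18.6% to 149%, with a median of 38.1%. Over all 5597 genes with such counts the median was 47.8%. Kmt2e was the steadiest member at 18.6%, followed by Chd8 (19.1%), Dnmt3a (20.4%) and Setd5 (20.8%). Dnmt3a (chromosome 12, 3806007 to 3914443, plus strand), whose exons overlap the antisense row Dnmt3aos, had 219, 171 and 204 CPM in saline, 219, 228, 143, 193 and 189 CPM in nonescalating and 240 and 158 CPM in escalating libraries. After withdrawal it had 160 to 325 CPM (median 189, n = 6) with saline and 183 to 272 CPM (median 195, n = 8) with nonescalating cocaine. All 5 groups overlapped in Dnmt3a, and its log2 fold changes against the matched saline group were -0.05 (SE 0.31, 95% interval -0.68 to 0.59) without and -0.12 (SE 0.23, -0.60 to 0.35) after withdrawal.

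At the other end, the wide spread of some members came from single libraries. Hdac3 (chromosome 18, 37935844 to 37955016, minus strand), the catalytic subunit gene of the NCoR corepressor complex, had 243 CPM (1133 counts) in saline replicate 1 (library 1806), against 10.9 and 7.66 CPM in the other saline libraries and at most 64.9 CPM in any other pull-down. Kdm6b (chromosome 11, 69398508 to 69413675, minus strand) had 266 CPM in the same library, against 33.3 and 66.2 CPM in the other saline libraries. Library 1806 also had a sum of 415 CPM over 5 microglial markers (2 of them at 0), where the other pull-downs had at most 74.9 CPM. The part of that RNA in the Hdac3 and Kdm6b values was not tested. Kdm2b had 153 CPM in nonescalating withdrawal replicate 5 (library 1843) and at most 48.1 CPM elsewhere. Setd8 had 532 CPM in escalating replicate 2 (library 1816) and at most 252 CPM elsewhere. Such a lead, over 2 times the second highest library, was seen in 6 of the 64 members and in 259 of the 5597 genes.

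The comparison of pull-down with input asks which regulators were more or less abundant in pulled-down polysome RNA than in total tissue RNA. None of the 85 members tested passed at an adjusted p under 0.05 by edgeR's quasi-likelihood test, where 38 of 14929 genes did (0.255%), all higher in the pull-down. An unadjusted p under 0.05 was reached by 1 member against 8.27% of all genes, DESeq2 called 0 members (5.07% of all genes) and voom 1, Chd5, a share of 1.18% against 7.3% of all genes. Chd5 (chromosome 4, 152338651 to 152390194, plus strand) had 155, 173 and 92.2 CPM in saline and 155, 83.4, 134, 144 and 119 CPM in nonescalating pull-downs, against 250 and 265 CPM in the saline and nonescalating inputs. All 8 libraries lay below both inputs, as did the 16 pull-downs of the other groups, whose highest had 226 CPM. The log2 fold change was -0.94 (SE 0.40, edgeR adjusted p = 0.51), and voom gave -1.14 (adjusted p = 0.0215). Over the pull-downs the 5 markers of D1 medium spiny neurons, which lack the tag, summed to 43.5 to 173 CPM, against 342 and 378 CPM in the inputs. The 5 markers of mural cells of blood vessels summed to 853 to 4968 CPM in saline and 637 to 3081 CPM in nonescalating pull-downs. In the saline and nonescalating inputs they summed to 156 and 111 CPM. Endothelial markers were also higher, at 615 to 3190 and 715 to 2952 CPM against 195 and 72.5 CPM. The part of vascular RNA in the fold changes of the members was not tested. In bulk RNA, fewer cells of a type and less RNA per cell cannot be told apart.

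The libraries of 3 members lay wholly above both inputs, against 3.26% of all genes, and those of 5 wholly below, against 4.26%. The 3 above were Tet3 (434 ± 207 CPM, SD, n = 8, against 253 and 175 CPM, log2 fold change 1.07, SE 0.53), Kmt2a (0.54, SE 0.41) and Kdm1a, the gene of the demethylase LSD1 (0.60, SE 0.54). Over all 24 pull-downs, which include the 8 that picked these members, Kdm1a was above both inputs in 22, Kmt2a in 21 and Tet3 in 17. Such counts were not taken over all genes. The 5 below were Chd5, Dnmt3a (-0.30, SE 0.38), Setdb1 (-0.93, SE 0.64), Sirt3 (-1.25, SE 0.87) and Sirt4 (-1.97, SE 1.78, and -3.004 without saline replicate 1). Over all 24, again with the 8 that picked these members, Setdb1 was below both inputs in 23, Sirt3 in 21, Dnmt3a in 20 and Sirt4 in 19. Also among the smallest p per direction were Chd1 and Brd9, above both inputs in 22 and 15 of 24, the 8 tested ones included. Setd4 and Dnmt3aos were below both in 22 and 23, with under 10 counts in 13 and 22 of 24. Dnmt3aos had 10 or more counts in 4 libraries, both inputs among them. It is thus in the set of members through the inputs, where it is high, and its values are a description. Without the saline input the Sirt3 value was -0.32 and without the nonescalating input -2.02. By family, 7 of 7 Brd, 5 of 5 Kmt2 and 3 of 3 Tet members had fold changes above 0, and 3 of 7 Sirt members did. In the other families it was 9 of 13 Smarc, 8 of 11 Chd, 11 of 18 Kdm, 5 of 10 Setd, 3 of 7 Hdac and 1 of 4 Dnmt members. Over all members the median log2 fold change was 0.19, with 55 of 85 above 0, against 0.07 and 53% over all genes. With 1 input per agent the spread is that of the pull-downs, and the 95% interval lay within 1 on the log2 scale for 2 of 85 members.

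**Figure D3:**
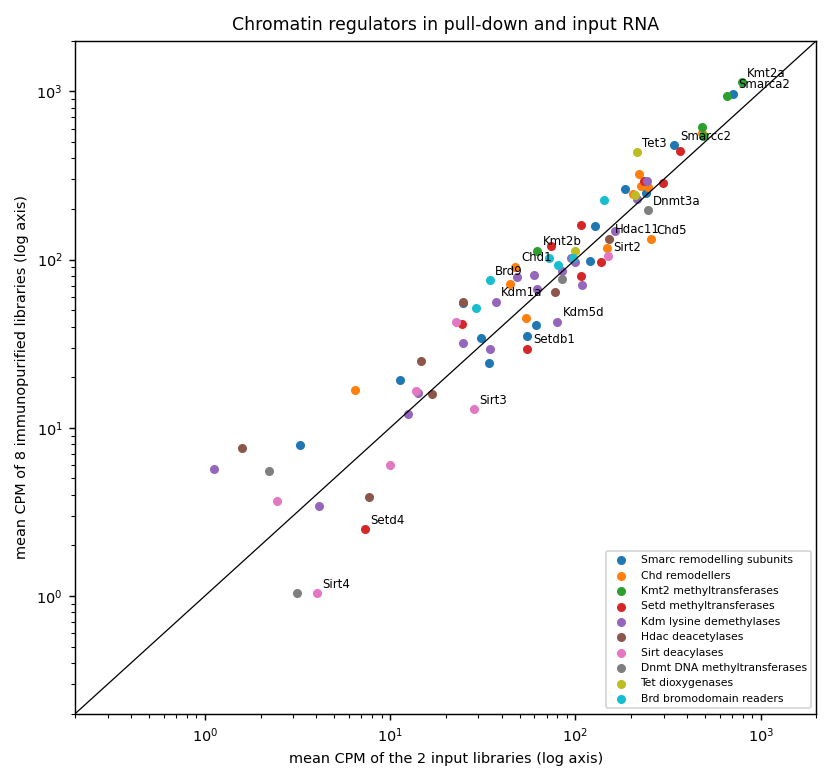
Mean CPM of the regulators in the 8 saline and nonescalating pull-downs without withdrawal against its mean in the 2 inputs, both on log axes, coloured by family. The line marks equal levels, and Chd5 (132 against 257 CPM) and Setdb1 lie below it while Tet3 and Kmt2a lie above it.

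Nonescalating cocaine was compared with saline without withdrawal, 5 against 3 libraries. No member passed by edgeR, and no gene of 15854 did (0%). Unadjusted p-values under 0.05 were found for 3 members (3.53%) against 6.74% of all genes, and DESeq2 (0.214% of all genes) and voom (0%) each called 0 members. The fold change was above 0 in 33 of 85 members, with a median of -0.15 on the log2 scale, against 50.4% and 0.01 over all genes. By family it was above 0 in 2 of 13 Smarc, 3 of 11 Chd and 1 of 5 Kmt2 members, but in 6 of 7 Sirt members. In the other families it was 9 of 18 Kdm, 6 of 11 Setd, 2 of 7 Brd, 2 of 7 Hdac, 1 of 3 Dnmt and 1 of 3 Tet members. All members share the same 3 saline libraries, so these directions are not independent.

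Setd5 (chromosome 6, 113077365 to 113153435, plus strand), a chromatin gene linked to intellectual disability, had 613, 536 and 459 CPM in saline and 454, 413, 241, 399 and 443 CPM in nonescalating libraries. It was the only member whose nonescalating libraries lay wholly below the saline ones (1.12% of all genes did), and none lay wholly above (1.26%). Its log2 fold change was -0.49 (SE 0.30, edgeR adjusted p = 0.80). Kdm6b had 62.4, 47.9, 70.9, 45.3 and 60.1 CPM in nonescalating libraries, within the saline range of 33.3 to 266 CPM. Its log2 fold change of -1.13 (SE 0.53, adjusted p = 0.72) became 0.21 without saline replicate 1. Kdm4a, a demethylase of heterochromatin marks, had 115, 26.4 and 21.8 CPM in saline and 5.52 to 22.5 CPM (median 16.6, n = 5) in nonescalating libraries, which overlap. Its log2 fold change of -1.94 (SE 0.85) was -0.74 without saline replicate 1. Kdm4d had 0 counts in all 3 saline libraries, where 3 counts are 0.318 to 0.965 CPM, and 0.352, 0, 13.9, 11.2 and 1.95 CPM in nonescalating libraries. Kdm4d reached 10 counts in 2 of these 5, and its highest pull-down was saline withdrawal replicate 1 (library 1817) with 41.8 CPM. Of the genes known from cocaine work, Smarca4 had a log2 fold change of -0.27 (95% interval -0.93 to 0.39), Tet1 -0.07 (-0.86 to 0.72), Hdac2 -0.19 (-1.04 to 0.66) and Sirt1 0.48 (-1.33 to 2.29). The interval lay within 1 on the log2 scale for 24 of 85 members. For the remaining members the interval does not exclude a difference of that size in at least 1 direction. Without nonescalating replicate 4 (library 1813), the library with few D2 markers, again 0 members passed.

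Escalating intake was compared with saline and with nonescalating intake. These comparisons share the same 2 escalating libraries, so they are not independent of each other. No member passed by edgeR in either, and no gene did (0% in both). At an unadjusted p under 0.05 it was 3 members in each, against 8.09% and 8.75% of all genes. DESeq2 called 0 members against saline (0.902% of all genes) and 1 against nonescalating, Sirt3, a share of 1.18% against 1.42% of all genes. With voom 0 members were called in both (0% and 0.0505% of all genes). Against saline, the escalating libraries lay wholly above in 4 members (7.66% of all genes) and wholly below in 9 (6.55%). Against nonescalating it was 3 above (4.99%) and 3 below (4.07%). The medians were 0.00 with 43 of 85 above 0 (46.7% of all genes) and 0.09 with 48 of 85 above 0 (45.5%).

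Sirt3 (chromosome 7, 140863666 to 140882309, minus strand), a mitochondrial deacylase gene that overlaps Psmd13, had 1.32 and 0.884 CPM in the escalating libraries, which are 20 and 6 counts. It had 15.6, 8.61 and 3.98 CPM in saline and 12.8, 16.3, 14.5, 13.9 and 17.6 CPM in nonescalating libraries. Both escalating libraries thus lay below all 8 others of library set 1 without withdrawal. After withdrawal with nonescalating cocaine 3 of 8 libraries, all of set 2, had 1.91, 1.91 and 0 CPM, which are 4, 5 and 0 counts. Against nonescalating the log2 fold change was -3.73 (SE 1.37, edgeR adjusted p = 0.56), and DESeq2 gave -3.88 (adjusted p = 0.0110). Reads of Sirt3 and Psmd13 cannot be told apart where their exons overlap. Setd8 (chromosome 5, 124439930 to 124462308, plus strand), which adds a single methyl group to a histone lysine during the cell cycle, had 92.3 and 532 CPM in escalating libraries. The first lies among the saline (70.1 to 118 CPM) and nonescalating libraries (46.4 to 151 CPM). Its log2 fold changes of 1.66 (SE 0.59) and 1.71 (SE 0.51) became -0.084 and -0.067 without escalating replicate 2 (library 1816).

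Kmt2e (chromosome 5, 23434441 to 23504235, plus strand) had 729 and 685 CPM in escalating and 395, 544 and 409 CPM in saline libraries, which do not overlap (0.63, SE 0.34, edgeR adjusted p = 0.63). Its nonescalating libraries had 487 to 771 CPM and overlap both. Other members whose escalating libraries lay wholly above saline were Smarca4 (353 ± 66.8 against 275 ± 45.5 CPM), Brd2 and Sirt6. Wholly below saline were Chd1l, a poly(ADP-ribose)-activated remodeller gene, with 3.04 and 0.737 CPM against 6.00, 4.36 and 52.1 CPM, and Kdm3b, Kdm8, Setd1a, Setd5, Chd6, Chd9, Smarcc1 and Sirt3. The Chd1l value of -3.42 (SE 1.52) was -1.48 without saline replicate 4 (library 1809). With 2 escalating libraries the interval lay within 1 on the log2 scale for 8 of 84 members against saline (Kdm4d, at 0 in both groups, has none) and for 14 of 85 against nonescalating.

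**Figure D4:**
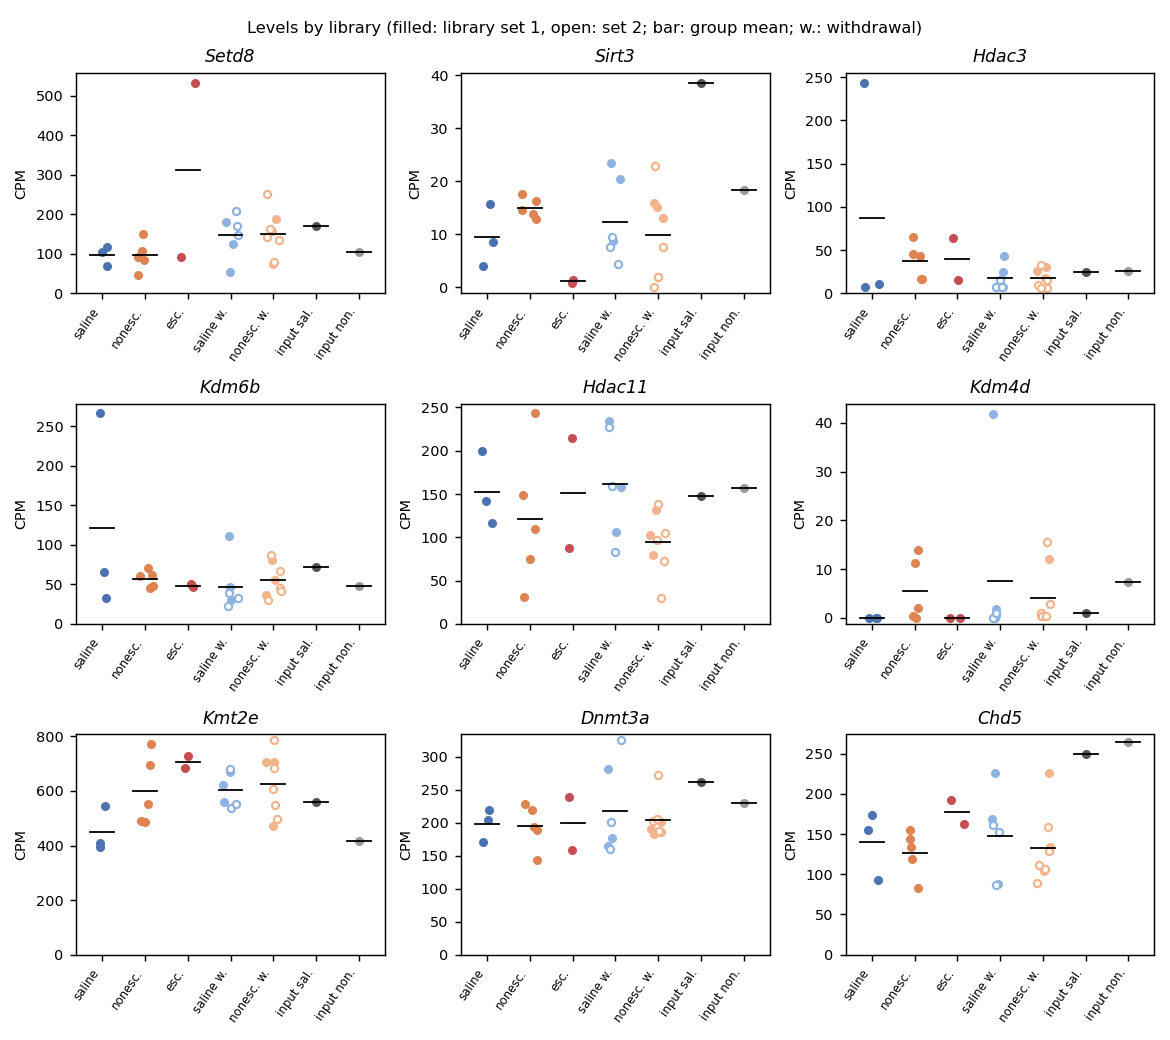
CPM of 9 regulators in each library by group, with filled points for library set 1, open points for set 2 and bars for group means. Single libraries stand out for Setd8 (532 CPM, escalating), Hdac3 (243 CPM, saline) and Kdm6b (266 CPM, saline), while both inputs of Chd5 lie above every pull-down.

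After withdrawal, nonescalating cocaine was compared with saline in 8 against 6 libraries of both sets. No member passed by edgeR, and no gene did (0%), with DESeq2 (0.0126% of all genes) and voom (0%) calling 0 members each. At an unadjusted p under 0.05 it was 1 member (1.18%) against 3.49% of all genes. The median was -0.00 with 42 of 85 members above 0, against 0.05 and 53.5% over all genes. No member had groups that did not overlap (0.0189% of all genes were wholly higher and 0.0126% wholly lower). By family the fold change was above 0 in 7 of 7 Brd and 5 of 5 Kmt2 members, with medians of 0.12 and 0.07, and in 3 of 13 Smarc and 3 of 11 Setd members, with medians of -0.07 and -0.01. In the other families it was 11 of 18 Kdm, 5 of 11 Chd, 4 of 7 Sirt, 2 of 7 Hdac, 1 of 3 Dnmt and 1 of 3 Tet members.

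Hdac11 (chromosome 6, 91156665 to 91174692, plus strand) had the smallest p. It had 83.6 to 234 CPM (median 159, n = 6) with saline and 30.0 to 139 CPM (median 99.8, n = 8) with cocaine, which overlap. Means were 161 ± 61.0 and 94.5 ± 34.5 CPM (SD), and the log2 fold change was -0.77 (SE 0.36, 95% interval -1.51 to -0.04, edgeR adjusted p = 1). Within library set 1 it was -0.68 (SE 0.41) and within set 2 -0.80 (SE 0.44). Both sets are parts of the libraries by which Hdac11 was picked, so they are not a separate test. The 7 oligodendrocyte markers, from cells that also express Hdac11, summed to 225 to 563 CPM with saline and 219 to 784 CPM with cocaine, with medians of 421 CPM in both. The part of oligodendrocyte RNA in the Hdac11 values was not tested. Kdm2b, a Polycomb recruiter that overlaps Rnf34, had 9.94 to 36.0 CPM (median 17.5) with saline and 14.3 to 153 CPM (median 32.2) with cocaine. Its log2 fold change of 1.06 (SE 0.57) was 0.25 in set 1 and 1.77 in set 2, the set of the library with 153 CPM. Kdm5d had 12.02 to 48.7 CPM with saline and 20.6 to 181 CPM with cocaine (0.83, SE 0.54), and the value was 0.25 in set 1 and 1.34 in set 2. Intervals lay within 1 on the log2 scale for 50 of 85 members. For Kmt2e the fold change was 0.05 (95% interval -0.37 to 0.47), for Smarca4 -0.04 (-0.53 to 0.45), for Tet1 -0.14 (-0.74 to 0.45) and for Hdac2 -0.15 (-0.79 to 0.48). For Sirt1 (0.88, -0.48 to 2.25) and Hdac3 (0.20, -1.09 to 1.49) the interval was wider than that.

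**Figure D5:**
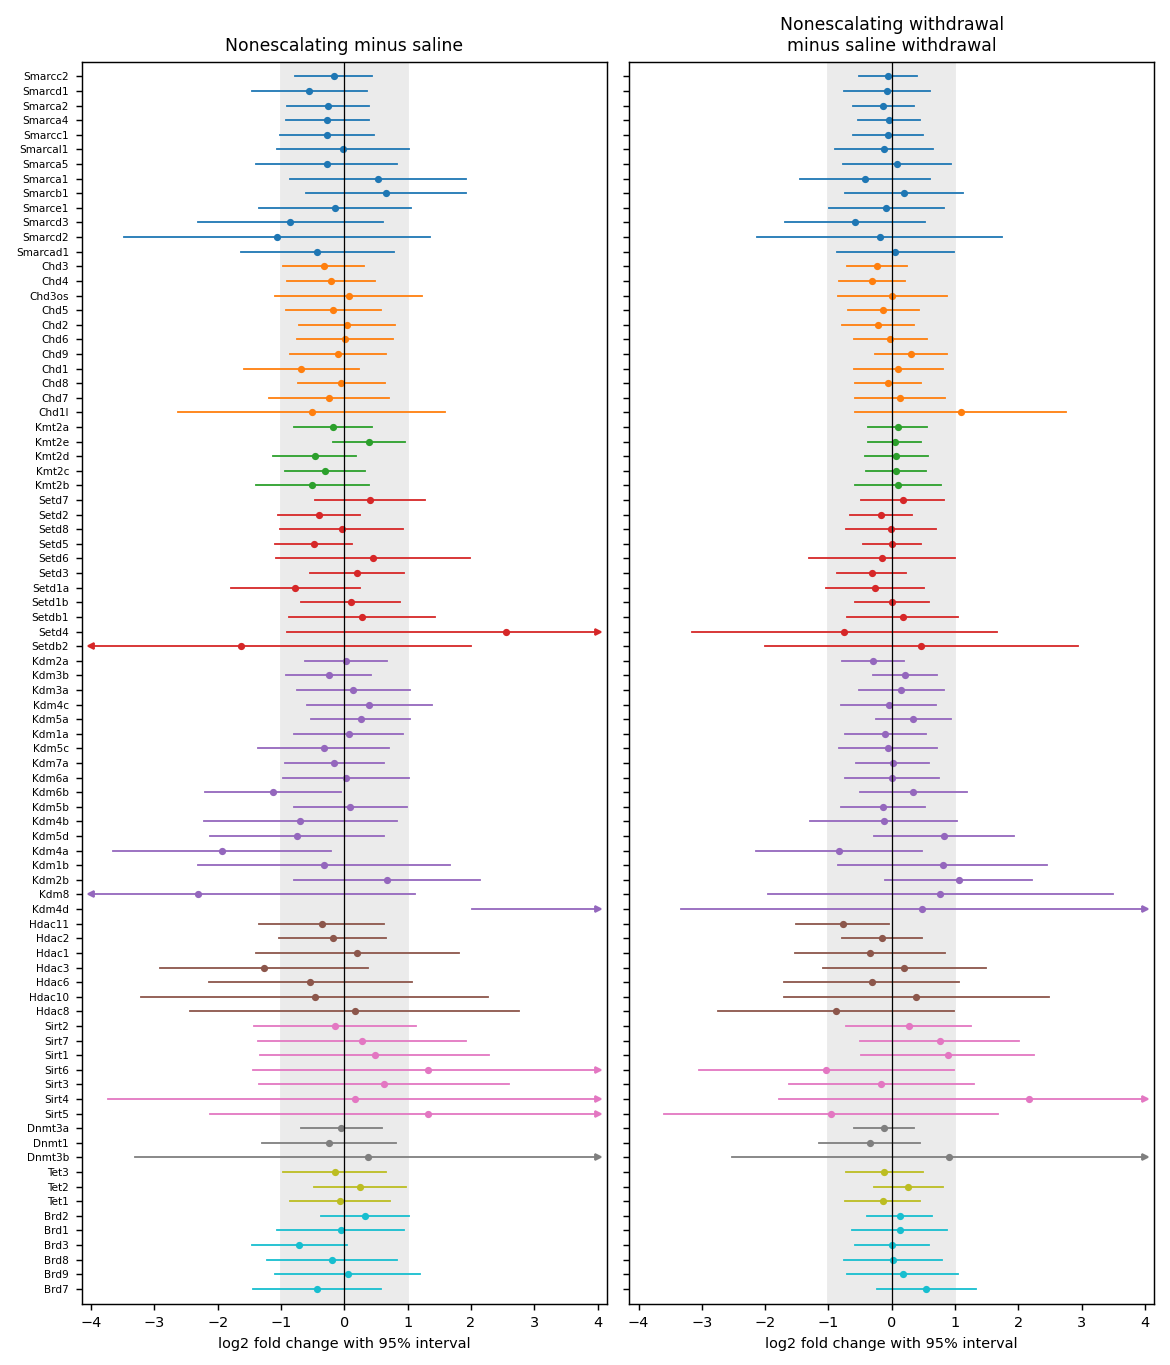
Log2 fold change with 95% interval of 84 tested members, for nonescalating against saline (left) and for nonescalating withdrawal against saline withdrawal (right), coloured by family and in order of level. The grey band marks 1 on the log2 scale to either side of 0, which holds 24 of the intervals drawn on the left and 49 on the right, and arrows mark intervals that run off the axis.

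Withdrawal itself was compared within each agent, and the saline and nonescalating libraries of the comparisons above serve again as references. No member and no gene passed by edgeR with saline (0%) or nonescalating cocaine (0%), and 0 members were called in both by DESeq2 (0.189% and 0% of all genes) and voom (0% in both). At an unadjusted p under 0.05 it was 4 members (4.71%) against 6.64% of all genes with saline and 0 against 2.78% with cocaine. With saline, 30 of 85 members had a fold change above 0 and the median was -0.16, against 47.5% and -0.05 over all genes. With cocaine it was 43 of 85 and 0.00, against 50.5% and 0.01. In the saline comparison Kdm3b was the 1 member wholly lower (1.1% of all genes were) and none was wholly higher (1.21%). Kdm3b had 203, 341 and 216 CPM in saline and 128 to 191 CPM (median 173, n = 6) in saline withdrawal libraries (-0.62, SE 0.34, edgeR adjusted p = 0.78). Brd7, a subunit gene of the PBAF remodeller, had 64.5, 34.0 and 84.0 CPM in saline and 21.2 to 35.6 CPM in saline withdrawal libraries (-1.23, SE 0.50, adjusted p = 0.74), which overlap. Hdac3 (-1.99, SE 0.84) and Kdm6b (-1.24, SE 0.54) had lower means after saline withdrawal, and without saline replicate 1 the values were 1.27 and 0.10. With cocaine the smallest p was that of Brd9, a reader of the non-canonical BAF complex, with 24.8 to 128 CPM (median 81.6, n = 5) and 17.3 to 67.1 CPM (median 38.8, n = 8) after withdrawal (-0.997, SE 0.53, edgeR adjusted p = 1). With cocaine no member had groups that did not overlap (0.0631% of all genes were wholly higher and 0.0568% wholly lower).

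Whether the cocaine effect differed with withdrawal was tested as the difference of both fold changes. No member and no gene passed by edgeR (0%), DESeq2 (0.0694% of all genes) and voom (0%) called 0 members, and at an unadjusted p under 0.05 it was 2 members (2.35%) against 4.89% of all genes. The median was 0.13 with 54 of 85 above 0, against 0.07 and 53.3%. Kdm6b had a difference of 1.48 (SE 0.67, edgeR adjusted p = 0.98), which was 0.14 without saline replicate 1. For Dnmt3a it was -0.08 (95% interval -0.87 to 0.72) and for Chd4 -0.10 (-0.97 to 0.78). Intervals lay within 1 on the log2 scale for 9 of 85 members.

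Library set 2 was compared with set 1 in the withdrawal groups, since it could move with the groups. Of all genes 145 passed by edgeR (0.915%), 25 higher (0.158%) and 120 lower (0.757%) in set 2, and of the members 0, while voom called 1, Setdb2 (1.18% against 2.99% of all genes), and DESeq2 0 (4.28% of all genes), giving Setdb2 no adjusted p. Unadjusted, 5 members (5.88%) had a p under 0.05, against 13.5% of all genes. The median of the members was -0.08 with 33 of 85 above 0, against -0.09 and 45.9% over all genes. Setdb2 (chromosome 14, 59402009 to 59440884, minus strand), a silencing methyltransferase gene, had 0 to 0.595 CPM in the 6 withdrawal libraries of set 1 and 1.09 to 13.9 CPM in the 8 of set 2, or 0 to 5 against 2 to 40 counts. It was the 1 member wholly higher (0.46% of all genes) and none was wholly lower (0.618%). Setdb2 had 10 or more counts in 5 libraries, 4 of them of set 2, so it is in the set of members through the library set where it is high, and its values are a description. The read-through row Setdb2-phf11c is listed in the tables of set 1 only, and the part of that difference between the tables in the Setdb2 value was not tested. Smarcc2 had 331 to 525 CPM in the set 1 and 216 to 348 CPM in the set 2 withdrawal libraries (-0.51, SE 0.22), Kmt2b had a fold change of -0.78 (SE 0.33) and Kmt2d of -0.51 (SE 0.24). Kdm7a was at 75.6 ± 23.5 CPM in set 1 and 114 ± 23.2 CPM in set 2 (0.64, SE 0.29). Of the Sirt members 0 of 7 had a fold change above 0, with a median of -0.72. In larger families it was 7 of 18 Kdm, 5 of 13 Smarc, 4 of 11 Chd and 7 of 11 Setd members. In the remaining ones it was 3 of 7 Brd, 2 of 7 Hdac, 3 of 5 Kmt2, 1 of 3 Dnmt and 1 of 3 Tet members. Markers of mural cells of blood vessels (5 genes, at most 1 of them at 0) summed to 999 to 3829 CPM in the set 1 and to 118 to 537 CPM in the set 2 withdrawal libraries, and their part in these values was not tested. The groups without withdrawal occur only in set 1, so for them the set is removed by estimate from the withdrawal groups.

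Beyond these families, 111 other chromatin genes were read gene by gene from the same fits: Polycomb and MLL complex subunits, acetyltransferases, arginine and other lysine methyltransferases, further BAF subunits, remodellers, corepressors and class IIa deacetylases. None passed by edgeR in any of the 9 comparisons. At an unadjusted p under 0.05 it was 4 higher and 2 lower for nonescalating against saline, where 6.74% of all genes had such a p. For cocaine against saline after withdrawal it was 0 and 2 (3.49% of all genes). For saline withdrawal against saline it was 3 and 4 (6.64%), and for pull-down against input 3 and 1 (8.27%). Their median log2 fold changes were -0.01, 0.04, -0.16 and 0.16 in the same order, where the 85 members had -0.15, -0.00, -0.16 and 0.19. Unadjusted counts for escalating intake were 3 and 2 against saline (8.09% of all genes) and 3 and 3 against nonescalating (8.75%). For withdrawal with cocaine it was 1 and 1 (2.78%), and for the difference of cocaine effects 2 and 3 (4.89%). For library set 2 against set 1 it was 6 and 10 (13.5%).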

How the data were processed

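RNA of the 24 pull-downs and 2 inputs was aligned with STAR 2.0.0e to mm10 and counted per gene with HTSeq, per the submitters' processing notes. Its version, the annotation and whether strand was used: not given in the sources used here. The deposited values are whole-number read counts per gene symbol. The 31735 gene rows present in every table were used, of 32657 in library set 1 and 32531 in set 2. The summary rows of HTSeq, among them reads in no feature (29.7% to 62.5% of the pull-downs' records), and a row with no gene name were left out. Exons of 18 members overlap another counted gene, and reads there cannot be told apart without a known strand setting.

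Tests used edgeR 4.0.16 in R 4.3.3 (TMM scaling, robust quasi-likelihood fit, minimum count 10, Benjamini-Hochberg adjustment over all genes, threshold 0.05). One fit held the 24 pull-downs with group and library set (15854 genes), and another the 8 saline and nonescalating pull-downs without withdrawal and both inputs with agent (14929 genes). Standard errors were taken from the fold change and its F statistic. CPM values were computed from gene totals scaled by TMM over the 26 libraries, and levels per kb the merged exons of GENCODE M21. Depth limits rest on counting error only. DESeq2 1.42.0, limma 3.58.1 (voom with sample weights), other scaling, filters, covariates, sample sets and leaving out single libraries were tried as alternatives, and the model code was tested on simulated data. Of 57 pairs of libraries of the same group compared by a chi-square test, none agreed within sampling noise (lowest chi-square per degree of freedom 20.4). The members and gene lists were chosen with earlier results of these data known. Members were named from those with the smallest p in each comparison (3 per direction) and those at the ends of each family's levels. Further sources were those whose groups did not overlap (up to 4 per direction) and members known from work on cocaine. Not every such member is given for each comparison. Brd7, Kdm4a, Kdm5d and Kdm7a were named for their small p, and other members appear only to complete a count or an order. Values of 1 member are not reported here.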

Additional observations from a re-analysis of the deposited data

Results flagged for a closer look

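In groups of 5 to 8 pull-downs, a single library stood far from the others by Dixon's ratio in 28 of 174 tests over 58 named members (16.1%), where chance gives about 1 in 20 for normally distributed values. Over all 15854 genes tested the same ratio was passed in 23.3% of 47203 tests, so the share among members is not above the background. It was the highest library in 25 and the lowest in 3. Every comparison with other libraries in the values that follow is within the group of the library named. Library 1817 (saline withdrawal replicate 1) gave 6 of them, and libraries 1812 (nonescalating replicate 3) and 1843 (nonescalating withdrawal replicate 5) 5 each.

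Among demethylases, library 1843 had 153 CPM of Kdm2b, 417 CPM of Kdm5a and 181 CPM of Kdm5d. Library 1817 had 41.8 CPM (87 counts) of Kdm4d, where the next saline withdrawal library had 1.90 CPM, and 111 CPM of Kdm6b. Kdm8 had 8.71 CPM (27 counts) in library 1812 and 22.3 CPM in library 1821, a nonescalating withdrawal library.

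Among methyltransferases, Setd7 had 839 CPM in library 1843, where the next nonescalating withdrawal library had 302 CPM. Setd4 had 10.9 CPM (29 counts) in library 1813 and 20.2 CPM (42 counts) in library 1817. Setd5 was lowest among nonescalating libraries in 1812 with 241 CPM, where the next had 399 CPM. Setdb2 had 0.488 CPM, a single count, in library 1814 and 11.4 CPM in library 1836. Dnmt3a had 272 CPM in library 1841, and the antisense row Dnmt3aos had 1.37 CPM (4 counts) in library 1838. Tet1 had 88.7 CPM in library 1812, the lowest of the nonescalating libraries, and 173 CPM in library 1842, the highest of the nonescalating withdrawal libraries.

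Among deacetylases, Hdac1 had 65.3 CPM in library 1821, where the next nonescalating withdrawal library had 25.1 CPM. Sirt1 had 29.0 CPM in library 1811 and 18.7 CPM in library 1817. Sirt4 had 7.68 CPM (16 counts) in library 1817 and Sirt5 6.84 CPM (24 counts) in library 1836. Sirt7, whose exons overlap Mafg, was lowest among nonescalating libraries in 1812 with 3.87 CPM (12 counts) and highest among saline withdrawal libraries in 1817 with 65.3 CPM.

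Among remodellers, Chd9 had 693 CPM in library 1843, where the next nonescalating withdrawal library had 303 CPM, and Chd3 had 736 CPM in library 1823. Smarcc2 had 702 CPM in library 1812 and 525 CPM in library 1818.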

How the results depend on the processing

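The count of members called was 0 in all 9 comparisons with edgeR under every other scaling, filter, covariate and set of samples tried, and 0 to 0 when each library was left out in turn. It was 1 with DESeq2 for escalating against nonescalating (Sirt3), where that tool called 225 of 15854 genes. It was 1 with voom for library set (Setdb2, 474 genes called) and 1 for pull-down against input (Chd5, 1090 of 14929 genes called). With edgeR, leaving out 1 library moved the calls over all genes between 1 and 252 for the input comparison and between 50 and 203 for library set. With a replicate block 0 members were called. Libraries with the same number were correlated at -0.10 to 0.32 in their deviations (median 0.09), over 0.1 in 3 of 8 pairs. Libraries with different numbers had -0.33 to 0.21 (median -0.02), over 0.1 in 5 of 31 pairs. These few pairs do not settle whether the numbers pair libraries. No label says so, and the main fit used no pairing.

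Of 1475 alternative values of single members, 1459 kept direction and side of the threshold, 13 changed sign and 3 passed the threshold: Sirt3 (-3.88 with DESeq2), Setdb2 (3.67) and Chd5 (-1.14), both with voom. Without saline replicate 1, Kdm6b was 0.21 (nonescalating against saline) and 0.10 (saline withdrawal against saline) and Hdac3 1.27 in the latter. Without libraries 1806, 1813 and 1843 the same values were 0.27, 0.077 and 1.30, and voom gave 0.022 for Hdac3. Without escalating replicate 2, Setd8 was -0.084 against saline and -0.067 against nonescalating, and Kdm4a was -0.39 against nonescalating. With saline withdrawal of set 1 as the reference for nonescalating, Kdm4d was -1.40, Setd4 -1.24 and Kmt2e -0.030. The cause was not tested where more than a library was changed. Depth limits the rows near 3 counts, among them Kdm4d, Setdb2, Sirt4, Sirt5 and Dnmt3aos.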
